A study of Drosophila melanogaster with 4 samples.

Results

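DNA damage checkpoint and repair genes were examined in larvae mutant for invadolysin, a conserved zinc metalloprotease, set against wild-type larvae. Of 10 genes chosen, the 9 described were mre11, rad50 and nbs, which encode the Mre11 complex, the kinase genes tefu, mei-41, grp and lok, the kinase partner gene mus304, and the transcription factor gene p53. A gene was taken as measured where a probe's annotation named it and no other gene. This held for these 9, each with 1 probe, among 11980 named genes and 13891 features in all, and the other gene was not analysed here. Total RNA was compared on 4 two-colour arrays, each holding 1 mutant and 1 wild-type sample. The mutant larvae carried the invadolysin allele 4Y7 and the wild type was Canton S, with all stocks kept at 25 degrees Celsius. The mutant RNA was labelled with Cy5 on replicates 1 and 4 and with Cy3 on replicates 2 and 3. The lesion of 4Y7, the genetic background of the mutant stock, the sex and number of larvae and the tissue are not stated in the labels or the table, so the allele and the background of the stock cannot be told apart.

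The Mre11 complex binds broken DNA ends, and its Nbs subunit brings in the kinase ATM, the product of tefu. ATM signals through Chk2, the product of lok, whereas single-stranded DNA at stalled forks recruits ATR (mei-41) with its partner ATRIP (mus304), which act through Chk1 (grp). In flies Chk2 activates p53, which after irradiation switches on cell death and repair genes, and the Mre11 complex with ATM also protects telomeres. These proteins are controlled largely by phosphorylation, which an RNA array does not measure.

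Each gene has 1 log2 ratio per array, with mutant over wild type, so that 1 stands for a doubling. The sources used here do not give the direction of the ratio, the log base or the normalization. The direction was taken from the wording of the titles, and base 2 from the range of the values. That the swapped arrays already run the same way was inferred from the arrays of opposite orientation, whose probes correlated with a mean r of 0.217, or 0.0351 without replicate 1. A dye bias in unturned ratios could also give positive values. Replicate 4 stood apart, with r of 0.213, 0.0312 and 0.0391 to replicates 1, 2 and 3. The Invadolysin probe was at -0.12, 0.11, 0.16 and 0.25 on replicates 1 to 4, and whether it lies in the altered part is unknown. Log ratios hold no levels, so the presence of larval or tissue markers could not be checked, and fewer cells of a type cannot be told apart from less RNA per cell.

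None of the 9 genes passed the test across all features (limma, Benjamini-Hochberg adjusted p under 0.05), which 114 features, 0.821%, passed. The genes nearest to it were mre11, at 2.49-fold higher in the mutant, and rad50, at 1.71-fold. Both lay above 0 on all 4 arrays, as did 14.0% of all features, and grp lay below 0 on all 4, as did 14.9%. Mean ratios lay above 0 for 7 of 9 genes and for 51.5% of all features. At an unadjusted p under 0.05 the count was 2 of 9, mre11 and rad50, where the background was 19.2%. The median of the 9 mean log2 ratios was 0.15, and that of all features was 0.02.

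**Figure D1:**
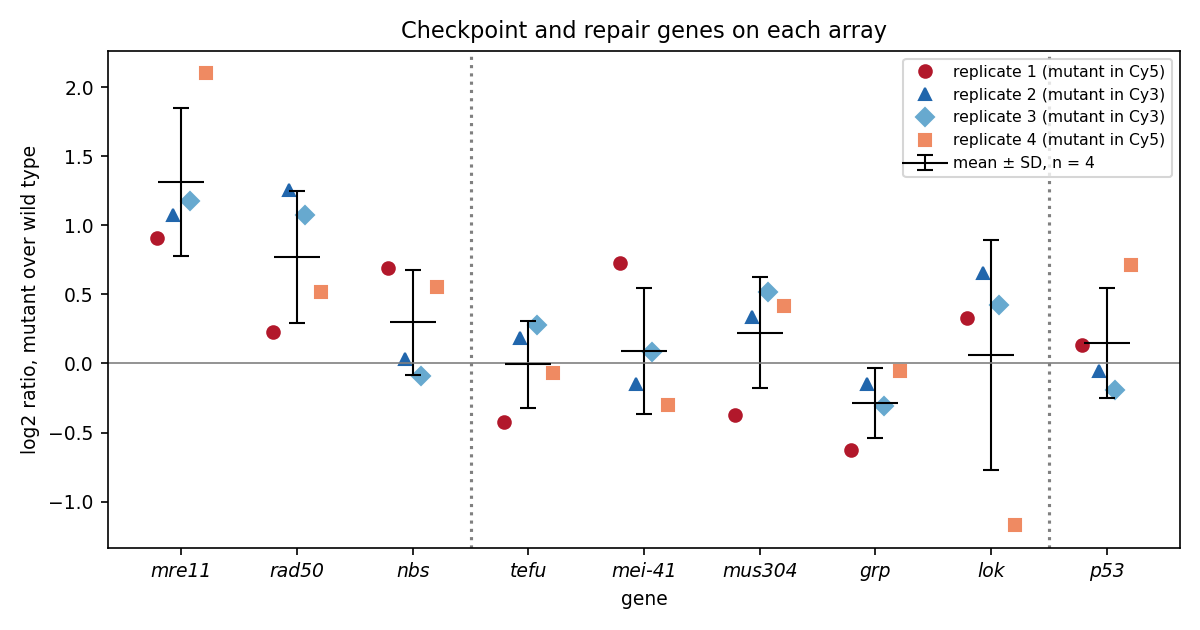
Log2 ratio of mutant over wild type (vertical axis) for each of the 9 measured genes (horizontal axis), with 1 point per array and a bar for the mean ± SD over 4 arrays. Dotted lines part the Mre11 complex, the kinases with mus304, and p53. All points of mre11 lie at 0.91 or above, and those of the kinase genes tefu, mei-41 and lok lie on both sides of 0.

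The largest ratio among these genes was that of mre11, whose product is the nuclease of the complex. Its log2 ratios on replicates 1 to 4 were 0.91, 1.08, 1.17 and 2.10. Replicates 1, 2 and 3 lay close together, and replicate 4 lay well above them. The mean was 1.31 ± 0.54 (SD, n = 4), with a 95% confidence interval from 0.74 to 1.89 that is not adjusted for the number of features, or from 1.67-fold to 3.72-fold. The unadjusted limma p was 0.0013 and the adjusted p 0.068. By its mean, 0.756% of all features lay higher than mre11, and on the single arrays 4.2%, 4.87%, 4.2% and 0.706% did. Thus mre11 was near the top of each array, also where its ratio was smallest. Without replicate 4 its mean log2 ratio was 1.05 (limma adjusted p = 0.0554).

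The ATPase of the complex, which tethers DNA ends, is encoded by rad50. Its log2 ratios were 0.23, 1.25, 1.08 and 0.52 on replicates 1 to 4. The arrays with the mutant in Cy3 gave the higher values and those with it in Cy5 the lower ones, without overlap. How common such a split is among all features, in either order, was not counted, so it is not taken as particular to rad50. The mean was 0.77 ± 0.48 (SD, n = 4; 95% confidence interval 0.23 to 1.31; limma adjusted p = 0.15). The means in the Cy5 and Cy3 orientations were 0.37 and 1.17, and the dye coefficient had an unadjusted p of 0.037 and a limma adjusted p of 0.299.

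The third subunit gene, nbs, showed the opposite order, likewise without a count over all features. Its log2 ratios were 0.69, 0.03, -0.09 and 0.56 on replicates 1 to 4, so it lay above 0 with the mutant in Cy5 and near 0 with it in Cy3. The mean was 0.30 ± 0.38 (SD, n = 4; 95% confidence interval -0.19 to 0.78; limma adjusted p = 0.459). Without replicate 1 it was 0.17, and with arrays weighted by limma it was 0.07. The dye coefficient of nbs had an unadjusted p of 0.0559 and a limma adjusted p of 0.319. Over all features the dye coefficient passed for 0 features, and for 2208 at an unadjusted p under 0.05, or 15.9%. The difference of rad50 minus nbs was -0.46, 1.22, 1.17 and -0.04 on replicates 1 to 4, above 1 with the mutant in Cy3 and below 0 with it in Cy5.

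The 3 genes of the complex averaged 0.61, 0.79, 0.72 and 1.06 on replicates 1 to 4, although the gene that contributed most differed. On replicates 1, 3 and 4 the highest was mre11, and on replicate 2 it was rad50. The difference of mre11 minus nbs was 0.22, 1.04, 1.26 and 1.54, above 0 on each array, with an exact two-sided sign-flip p of 0.125, the smallest that 4 arrays allow. The difference of mre11 minus rad50 was 0.68, -0.18, 0.10 and 1.58, of both signs (exact p = 0.375). The arrays thus did not settle whether the subunit genes moved by unequal amounts.

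**Figure D2:**
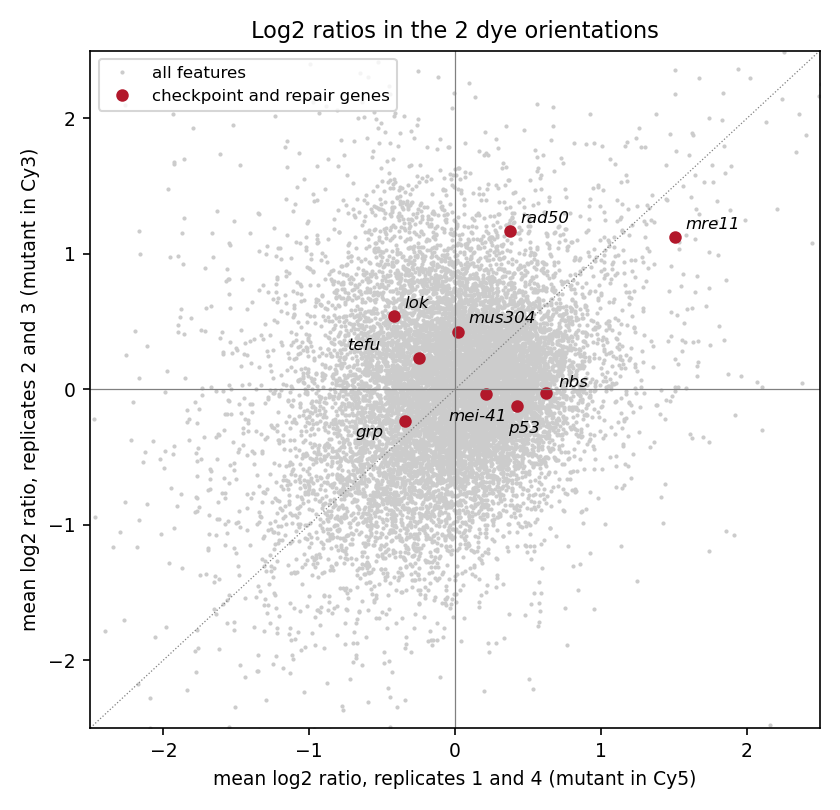
Mean log2 ratio of replicates 1 and 4, with the mutant in Cy5 (horizontal axis), against that of replicates 2 and 3, with it in Cy3 (vertical axis), for all features (grey; those beyond 2.5 on either axis are not drawn) and the 9 genes (red). Of the 9, mre11 stands at 1.504 and 1.13, near the dotted line of equal values, while rad50 lies nearer the vertical axis and nbs nearer the horizontal one.

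The calls of mre11 and rad50 changed with the weight given to the arrays. Limma's array weights were 0.52, 5.47, 1.51 and 0.232 for replicates 1 to 4. The 2 largest were those of the arrays with the mutant in Cy3, so the dyes were not balanced in the weighted fit. With these weights mre11 was at 1.12 (limma adjusted p = 0.00243) and rad50 at 1.13 (limma adjusted p = 0.00332). In that fit lok, at 0.53 (limma adjusted p = 0.0339), also passed, and so did 21.9% of all features in the higher direction. Within the 2 arrays with the mutant in Cy3 both mre11 and rad50 passed (limma adjusted p = 0.0393 for each), as did 8.99% of all features in that direction. Within the 2 arrays with it in Cy5 mre11 was at 1.504 and did not pass (limma adjusted p = 0.304). Within 1 orientation an effect of the mutant and an effect of the dye cannot be told apart. If the deposited ratios were unturned, as Cy5 over Cy3, the value of mre11 would be 0.19 and that of rad50 -0.40, with limma adjusted p = 0.951 and 0.787.

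**Figure D3:**
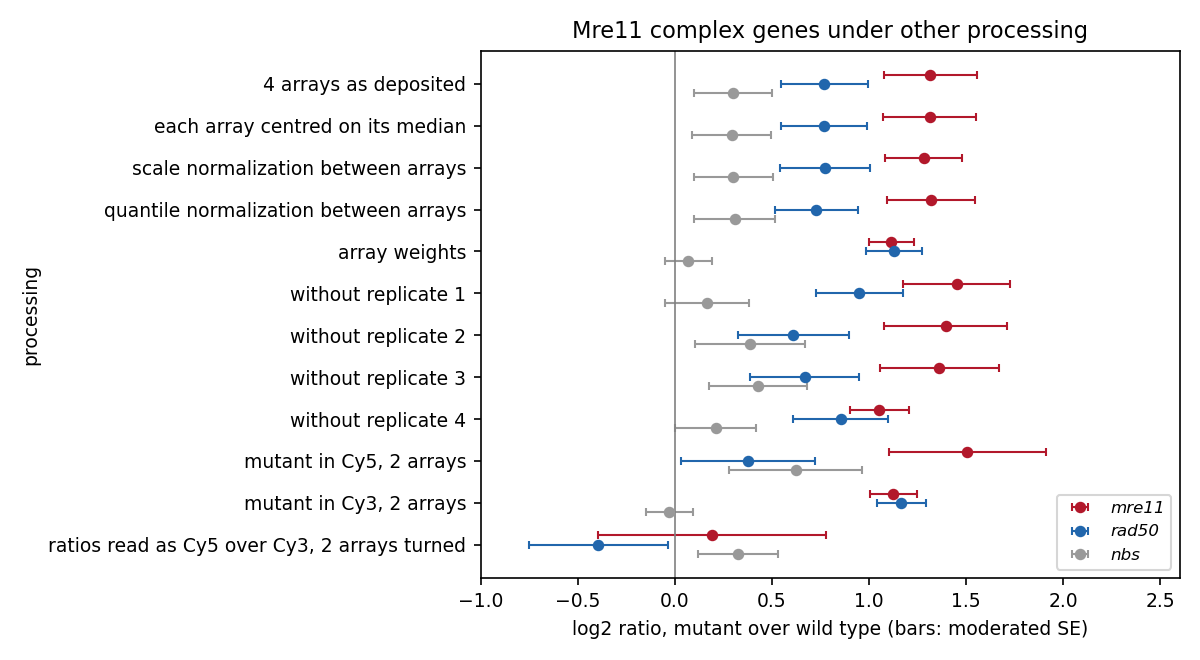
Log2 ratio of mutant over wild type (horizontal axis; bars are limma's moderated standard error) for mre11, rad50 and nbs under each processing (vertical axis). The values of mre11 run from 1.05 to 1.504 except where the 2 arrays are turned, which gives 0.19, and those of rad50 range from -0.40 to 1.17.

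The apical kinase genes differed in sign between arrays. The log2 ratios of tefu, the ATM gene, were -0.42, 0.19, 0.28 and -0.07 on replicates 1 to 4, with a mean of -0.01 ± 0.31 (SD, n = 4; limma adjusted p = 0.987). It was below 0 on both arrays with the mutant in Cy5 and above 0 on both with it in Cy3. Its 95% confidence interval ran from 1.37-fold lower to 1.36-fold higher, so larger changes lie outside it. The log2 ratios of mei-41, the ATR gene, were 0.73, -0.15, 0.08 and -0.30, with a mean of 0.09 ± 0.45 (limma adjusted p = 0.852). Replicate 1 was high and the others lay around 0. The interval of mei-41 ran from 0.738-fold to 1.53-fold.

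The ATR partner gene mus304 was above 0 on 3 of 4 arrays. Its log2 ratios were -0.37, 0.34, 0.52 and 0.41, with a mean of 0.22 ± 0.40 (SD, n = 4; 95% confidence interval -0.27 to 0.72; limma adjusted p = 0.581). Without replicate 1 it was 0.42, and without replicate 3 it was 0.13. Replicate 1 was the low one for mus304 and the high one for mei-41, although their products act as a pair. The difference of mei-41 minus mus304 was 1.10, -0.49, -0.43 and -0.71 (exact two-sided sign-flip p = 0.75).

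Of the effector kinase genes, grp, which encodes Chk1, was the only one of the 9 below 0 on all arrays. Its log2 ratios were -0.63, -0.15, -0.31 and -0.06, and the mean was -0.29 ± 0.25 (SD, n = 4; 95% confidence interval -0.71 to 0.13; limma adjusted p = 0.413). The gene of Chk2, lok, varied most of the 9. Its log2 ratios were 0.33, 0.66, 0.43 and -1.17, so replicates 1 to 3 were above 0 and replicate 4 was far below. The mean of lok was 0.06 ± 0.83 (SD, n = 4; limma adjusted p = 0.937), and without replicate 4 it was 0.47 (limma adjusted p = 0.13). On replicate 4, then, lok stood lowest of the 9 genes and mre11 highest.

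Taken by branch, tefu and lok averaged -0.05, 0.42, 0.35 and -0.62 on replicates 1 to 4. The ATR branch of mei-41, mus304 and grp averaged -0.09, 0.01, 0.09 and 0.02. The ATM branch thus spread over both signs, and the ATR branch stayed within 0.1 of 0 although its single genes did not. All 4 kinase genes together averaged 0.00, 0.14, 0.12 and -0.40, below the Mre11 complex mean on every array. As the genes were chosen with these values known, that order is given as a description.

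The p53 gene was at 0.13, -0.06, -0.19 and 0.71 on replicates 1 to 4, with a mean of 0.15 ± 0.40 (SD, n = 4; 95% confidence interval -0.35 to 0.64; limma adjusted p = 0.72). It was above 0 with the mutant in Cy5 and below 0 with it in Cy3, the reverse of tefu. Opposite signs in the 2 orientations, in either order, were found for 2 of the 9 genes and for 17.2% of all features.

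Other genes of repair and checkpoint pathways were taken from lists, of which 56 genes beyond the members were measured. Among these 56 genes 0 passed in limma in either direction, 6 lay higher and 1 lower at an unadjusted p under 0.05, against 7.91% and 11.3% of all features, and 9 were above and 5 below 0 on all 4 arrays, against 14.0% and 14.9%. Their median log2 ratio was 0.06.

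End joining, which ligates broken ends without a template, had the highest median of the lists beside the Mre11 complex, 0.50 over 6 genes. One of the 6, CG3448, has no role in the annotation used here, so its place in the list is in doubt. Of the 6 genes 0 passed, and 4 were above 0 on all 4 arrays and had an unadjusted p under 0.05, where 14.0% and 7.91% of all features did. Without CG3448 both counts were 3 of 5, and the median was 0.47. Ku80, a subunit of the Ku heterodimer that caps broken ends, was at 1.18, 0.85, 0.68 and 0.03 on replicates 1 to 4 (mean 0.68 ± 0.48, SD, n = 4; limma adjusted p = 0.184). Irbp, the gene of the other subunit, Ku70, was at 0.54, 0.34, 0.66 and 0.32 (mean 0.47 ± 0.16; limma adjusted p = 0.2). Both Ku genes were above 0 on each array, and Ku80 was close to 0 on replicate 4. PolQ, the polymerase gene of the alternative end-joining route, was at 0.87, 0.75, 0.42 and 0.07 (mean 0.53 ± 0.36; limma adjusted p = 0.223). CG3448 had the highest mean of the 6, 0.86 ± 0.49 (limma adjusted p = 0.131). DNAlig4, the ligase gene of the pathway, was at 0.17 ± 0.71, and CG12728, to which the annotation gives the names XLF1 and XRCC4, was at -0.05 ± 0.28. On replicate 4 the list's median was 0.05, against 0.66, 0.72 and 0.67 on replicates 1 to 3, so replicate 4, which gave the highest ratio of mre11, gave the lowest for end joining.

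Homologous recombination, which repairs breaks from a template, gave a median of -0.06 over 12 measured genes, with 0 past the threshold. RPA1, the large subunit of the single-strand binding protein, was highest at 0.47 ± 0.32 (SD, n = 4; limma adjusted p = 0.247). RPA2, a smaller subunit of the same protein, was lowest at -0.25 ± 0.28. The gene of the nuclease cofactor CtIP, which acts with the Mre11 complex in resection, was at -0.19, -0.16, -0.13 and -0.13, a narrow range below 0 (limma adjusted p = 0.604). Brca2 was at -0.05 ± 0.54, and okr, the Rad54 gene, was at -0.13 ± 0.23. No mean in this list reached that of rad50.

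Checkpoint clamp and mediator genes also centred near 0, with a median of -0.06 over 8 measured genes and 0 past the threshold. The lowest was mus101, the TopBP1 gene, at -0.22, -0.35, -0.37 and -0.43 (mean -0.34 ± 0.09, SD, n = 4; limma adjusted p = 0.29). The highest was twe, a Cdc25 phosphatase gene known for its role in meiosis, at 0.39 ± 0.18 (limma adjusted p = 0.261). Claspin, the mediator between ATR and Chk1, was at -0.52, 0.36, 0.52 and -1.15, of opposite sign in the 2 dye orientations.

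**Figure D4:**
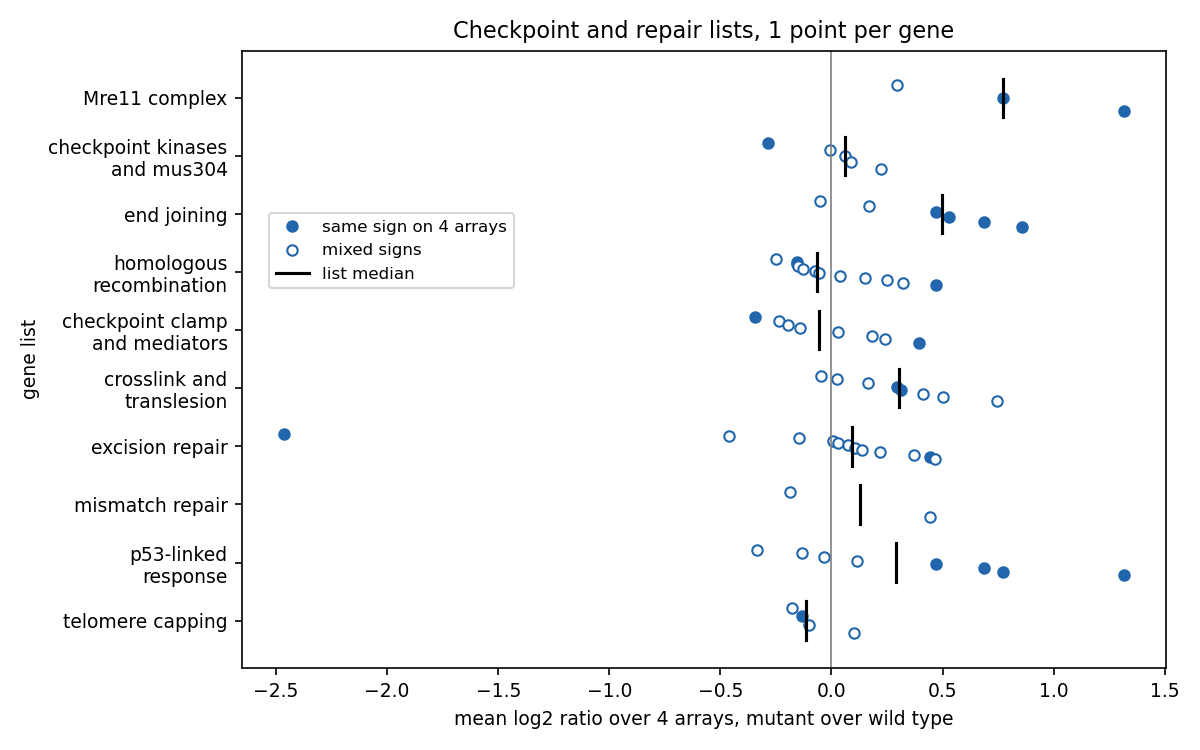
Mean log2 ratio over 4 arrays (horizontal axis) of each measured gene in 10 checkpoint and repair lists (vertical axis); filled points lay on 1 side of 0 throughout, and black bars are list medians. Medians were 0.77 for the Mre11 complex and 0.50 for end joining, and between -0.12 and 0.30 for the other lists.

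Crosslink and translesion repair genes had a median of 0.30 over 8 genes, and 0 passed. The highest was PolI, a translesion polymerase gene, at 0.48, 1.52, 1.38 and -0.40, high where the mutant was in Cy3 (limma adjusted p = 0.301), and the lowest was PolZ1 at -0.05 ± 0.29. In excision repair 0 of 12 genes passed, with a median of 0.09. The lowest was Xpac, the XPA gene of nucleotide excision repair, at -1.55, -1.63, -6.21 and -0.47, below 0 on all arrays. Its mean was -2.46 (limma adjusted p = 0.218), a size that owes much to replicate 3. The highest was Ercc1, a gene of the XPF nuclease, at 0.46 ± 1.12. Its ratios were 0.03, 1.67, 1.02 and -0.87, higher where the mutant was in Cy3. Xpc, the damage recognition gene, was at 0.44 ± 0.25 and above 0 on all arrays. The mismatch repair genes Msh6 and Pms2 were at -0.19 ± 0.41 and 0.44 ± 0.56. Of 4 telomere capping genes 0 passed, from -0.18 ± 0.26 for the HP1a gene to 0.10 ± 0.21 for cav, the HOAP gene. RnrL, the large subunit gene of ribonucleotide reductase, was at -0.34 ± 0.29 (limma adjusted p = 0.364).

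The list linked to the p53 response to irradiation holds mre11 and rad50 themselves and the Ku genes. It had 8 measured genes, 0 past the threshold and a median of 0.29. Above 0 on all arrays were 4 of the 8, against 14.0% of all features. They are those 4 genes, already described above. The means of the remaining measured genes lay between -0.34 and 0.11. These were skl, a cell death gene, at -0.13 ± 0.996, egr, a TNF ligand gene, at 0.11 ± 0.35, Corp at -0.03 ± 0.34, and RnrL. The cell death genes rpr and hid and the stress factor gene Xrp1 were not analysed here.

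The genes next to mre11 in the genome had ratios nearer to 0. Osi21, whose annotated extent overlaps that of mre11, was at -0.35, 0.15, 0.27 and -0.50 (mean -0.11 ± 0.37, SD, n = 4), and Ppt2, on the other side, was at 0.20 ± 0.28. The targets were made from double-stranded cDNA, so overlapping transcripts may not be told apart by strand. Beside rad50, mRpS29 was at -0.87 ± 0.32 (limma adjusted p = 0.0881), opposite in sign to rad50. Beside nbs, CG14174, which overlaps it, was at -0.26 ± 0.36 and defl at 0.14 ± 0.25.

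The named genes whose 4 ratios were most like those of mre11, by Euclidean distance over the 4 arrays, were Ag5r, CG6409, ALiX, yellow-f and Tl, at distances of 0.196, 0.362, 0.547, 0.575 and 0.593. None of these 5 passed (limma adjusted p from 0.064 to 0.108). Ag5r was at 0.85, 1.05, 1.03 and 2.21, with replicate 4 above the rest as for mre11. No gene of the repair lists was among the 5.

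Many repair genes are most active in dividing cells, so markers of such cells were examined. Their median log2 ratio was -0.21 over 12 measured genes, with 0 past the threshold, 3 below 0 on all arrays and 0 above. Over all features 14.9% lay below 0 on all arrays and 14.0% above. PCNA, the replication clamp gene, had the lowest mean of the 12, with ratios of -1.12, -0.55, -0.79 and -1.20 (limma adjusted p = 0.0777). The highest mean was that of Orc1, at 0.19 ± 0.44 (limma adjusted p = 0.666). Means lay above 0 for 4 of the 12, against 51.5% of all features. By array the median of these markers was -0.06 and 0.28 with the mutant in Cy5 (replicates 1 and 4). With the mutant in Cy3 (replicates 2 and 3) it was -0.28 and -0.45. Germ line markers had a median of -0.05, 0.10, 0.03 and 0.49 on replicates 1 to 4, over 7 genes. On replicate 4 vas was at 1.97, aub at 0.56, bgcn at 0.51, tud at 0.49 and osk at 0.28. On that array bam was at -0.40 and piwi at -0.28. Over the 4 arrays piwi had the highest mean of that list, 0.67 ± 0.64 (limma adjusted p = 0.251). Muscle markers (6 genes) had medians of -0.64, -0.70, -0.81 and -0.05. Of these, 4 of 6 were below 0 on all arrays, against 14.9% of all features. At an unadjusted limma p under 0.05, 4 of 6 were lower, against 11.3% of all features. Blood cell markers (6 genes) had medians of 0.15 and 0.08 with the mutant in Cy5 and of -0.39 and -0.65 with it in Cy3. In each of these lists 0 genes passed. The part of these cell types in the ratios of mre11, rad50 and lok was not tested, nor was that of the dye in these medians.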

How the data were processed

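The deposited table held 1 log2 ratio per probe and array for 4 two-colour arrays. No label or header names the scanner steps, normalization, log base or direction behind these deposited log2 values. Array medians were within 0.02 of 0, with 0 missing values. No channel brightness was used here, so precision rests on the number of arrays.

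The platform annotation, which can be old, named 1 gene for 12658 of 14569 probes, several for 96 and none for 1815. Probes of 1 gene were averaged per array, which left 13891 features. Their ratios were set against 0 by a two-sided moderated test (eBayes after lmFit; R 4.3.3, limma 3.58.1), with Benjamini-Hochberg adjustment over all features and a threshold of 0.05. Exact sign-flip tests, tables and figures were made in Python 3.11.15 (matplotlib 3.10.9, pandas 2.3.3, numpy 2.4.6). SDs are over 4 arrays, called biological replicates by the series. Alternatives were a dye term, turned ratios, centring, scale and quantile normalization, array weights, robust shrinkage, single probes and leaving out each array. The split by dye orientation was added after the data were seen.

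The members and lists were chosen with earlier results of these data known. Named are all members, the highest and lowest gene of each repair and checkpoint list, up to 4 per such list with the smallest p, the neighbours of the Mre11 complex genes and the 5 genes nearest to mre11. Claspin, DNAlig4, PCNA, Orc1, skl, egr, Corp, vas, aub, bgcn, tud, osk, bam, piwi, okr, Brca2 and CtIP were named after their values were seen. List symbols were matched to the annotation or through RefSeq's genes of Release 6 of the fly assembly, used for names and neighbours only.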

Additional observations from a re-analysis of the deposited data

Results flagged for a closer look

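On 2 of the 9 genes the dye orientations had opposite signs on every array. For tefu the mean with the mutant in Cy5 was lower than that with it in Cy3 by a log2 difference of -0.48, from -0.25 to 0.23, and the dye coefficient had an unadjusted p of 0.15 (limma adjusted p = 0.429). For p53 the difference was 0.55, from 0.42 to -0.12, with an unadjusted p of 0.149 (limma adjusted p = 0.427). Neither difference passed, and such opposite signs were found in 17.2% of all features.

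Single arrays stood apart by Dixon's ratio, the gap to the nearest other array over the whole range, for 2 of 56 pathway genes and 0 of the 9 members. For Fancd2, a Fanconi crosslink repair gene, the ratio was 0.904, with replicate 1 at 0.99 and the others from 0.01 to 0.11. For Fen1, a flap nuclease gene, it was 0.893, with replicate 4 at -0.73 and the others from 0.22 to 0.34. Chance gives about 1 in 20 such genes. For lok the ratio was 0.82, just under the critical value, and for mre11 it was 0.777.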

How the results depend on the processing

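The count of members past the threshold was 0 of 9 in each alternative listed with the methods except array weights, where it was 3, and the split by dye orientation, added after the data were seen, where it was 2 within the mutant-in-Cy3 arrays. The 114 features past the threshold became 0 with a dye term (3537 at an unadjusted p under 0.05), 0 with turned ratios (1053), 6079 with array weights, 4 within the mutant-in-Cy5 arrays and 2573 within the mutant-in-Cy3 arrays. Without replicates 1, 2, 3 and 4 the count was 0, 19, 17 and 21 (2052 at an unadjusted p under 0.05 without replicate 1), and under quantile normalization it was 55 higher and 35 lower, against 55 and 59. The mean of mre11 ran from 1.05 to 1.45 and that of rad50 from 0.61 to 0.95 when 1 array was left out, with 0.17 to 0.43 for nbs and 0.13 to 0.42 for mus304. Turned ratios changed the sign of rad50 (-0.40), mus304 (-0.20) and lok (-0.48). Array weights changed that of tefu (0.16), mei-41 (-0.0503) and p53 (-0.0473). The mutant-in-Cy3 arrays alone changed that of nbs (-0.0284), tefu (0.23), mei-41 (-0.0347) and p53 (-0.12), and the mutant-in-Cy5 arrays alone that of lok (-0.42). Leaving out 1 array gave ranges of both signs for tefu (-0.10 to 0.13), mei-41 (-0.12 to 0.22), lok (-0.14 to 0.47) and p53 (-0.0383 to 0.26). The cause of these changes was not tested. The sign of grp was kept in all alternatives, from -0.36 to -0.06. The fit is already paired, since each ratio sets 1 mutant against 1 wild-type sample of the same array.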
